A study of Mus musculus with 8 samples.

Results

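Osteoclasts are the multinucleated cells that resorb bone, and 10 genes that code for their signals, receptors and effector proteins were followed in the first lower molars of mouse embryos. The genes were chosen by name for their known roles, with earlier results of these data known. They are Tnfsf11, Tnfrsf11a, Tnfrsf11b, Csf1, Csf1r, Ctsk, Acp5, Calcr, Dcstamp and Ocstamp, and all 10 were found among the 43629 genes counted. Bulk RNA-seq was available for 4 K14Cre;Jagged1fl/fl embryos, called Mutant, and 4 Jagged1fl/fl littermates, called Control (WT), all at E18.5. Both groups carry the floxed Jagged1 alleles, and Cre is driven by the keratin 14 promoter, which is active in epithelium and not in the cells that form osteoclasts. Molars from both sides of the jaw went into a single pool, so each embryo gave 1 library. The sex and litter of the embryos were not given. The control embryos are J3, J5, J6 and J7, and the mutant embryos are K14J26, K14J28, K14J29 and K14J30.

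Osteoclasts arise by fusion of precursors of the monocyte and macrophage lineage. CSF1 binds its receptor CSF1R and keeps these precursors alive and dividing, and RANKL, the product of Tnfsf11, binds RANK, the product of Tnfrsf11a, and drives them to become osteoclasts. Osteoprotegerin, the product of Tnfrsf11b, is a secreted decoy receptor that captures RANKL before it reaches RANK. Around a tooth germ, osteoclasts resorb the alveolar bone of the crypt and later open the path for eruption, and the dental follicle is a known source of CSF1, RANKL and osteoprotegerin.

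The libraries held between 17327224 and 29792467 counts, and 3 counts corresponded to at most 0.166 CPM, the unit used here for counts after TMM scaling to library size. Jag1, the targeted gene, lay between 95.2 and 104 CPM in the control embryos and between 34.0 and 57.1 CPM in the mutant embryos, in the direction of the labels. Xist was high in K14J28 (1930 CPM) and in K14J29 (1468 CPM) and did not exceed 1.09 CPM in any of the others. Both are mutant embryos, so Xist as a covariate is not independent of the genotype. Skeletal muscle markers summed to 409 CPM in J6 and 206 CPM in J7 and to at most 19.4 CPM elsewhere. K14J28 lay at least 2-fold above the median of the other 7 embryos in 6 of the 10 genes. The fold changes of the 10 genes are therefore given with and without it. Over all genes tested, K14J26 led most often, as the highest embryo for 27.8%, beside 13.7% for K14J28. K14J26 also had the lowest TMM factor, 0.843, beside 0.969 to 1.04 in the others.

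All 10 genes passed the filter of at least 10 counts in at least 2 embryos of a group. With edgeR's quasi-likelihood test and Benjamini-Hochberg adjustment over 17129 genes, 1 of the 10, Tnfrsf11b, was higher in the mutant molars at an adjusted p under 0.05, and 0 were lower. Of all genes tested, 16.1% passed in either direction, 9.52% as higher and 6.61% as lower, so the count of 1 in 10 is not above the background. At an unadjusted p under 0.05, 2 of the 10 were higher and 1 was lower, beside 19.1% and 15.7% of all genes, and without K14J26 the 2 became 6, beside 18.8% of all genes in that fit. DESeq2 called 1 higher and 1 lower, beside 23.1% of all genes in either direction. By the criterion of the study, an unadjusted p of at most 0.05 with a fold change of at least 0.5, read here as a log2 ratio, 2 of the 10 were higher and 0 lower, beside 8.33% and 5.85% of all genes (14.2% in either direction). The groups did not overlap for 2 of the 10, Tnfrsf11b and Csf1, beside 24.2% of all genes. The median log2 fold change over the 10 genes was 0.61, beside 0.01 over all genes tested. Without K14J28 the median of the 10 was 0.12.

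**Figure D1:**
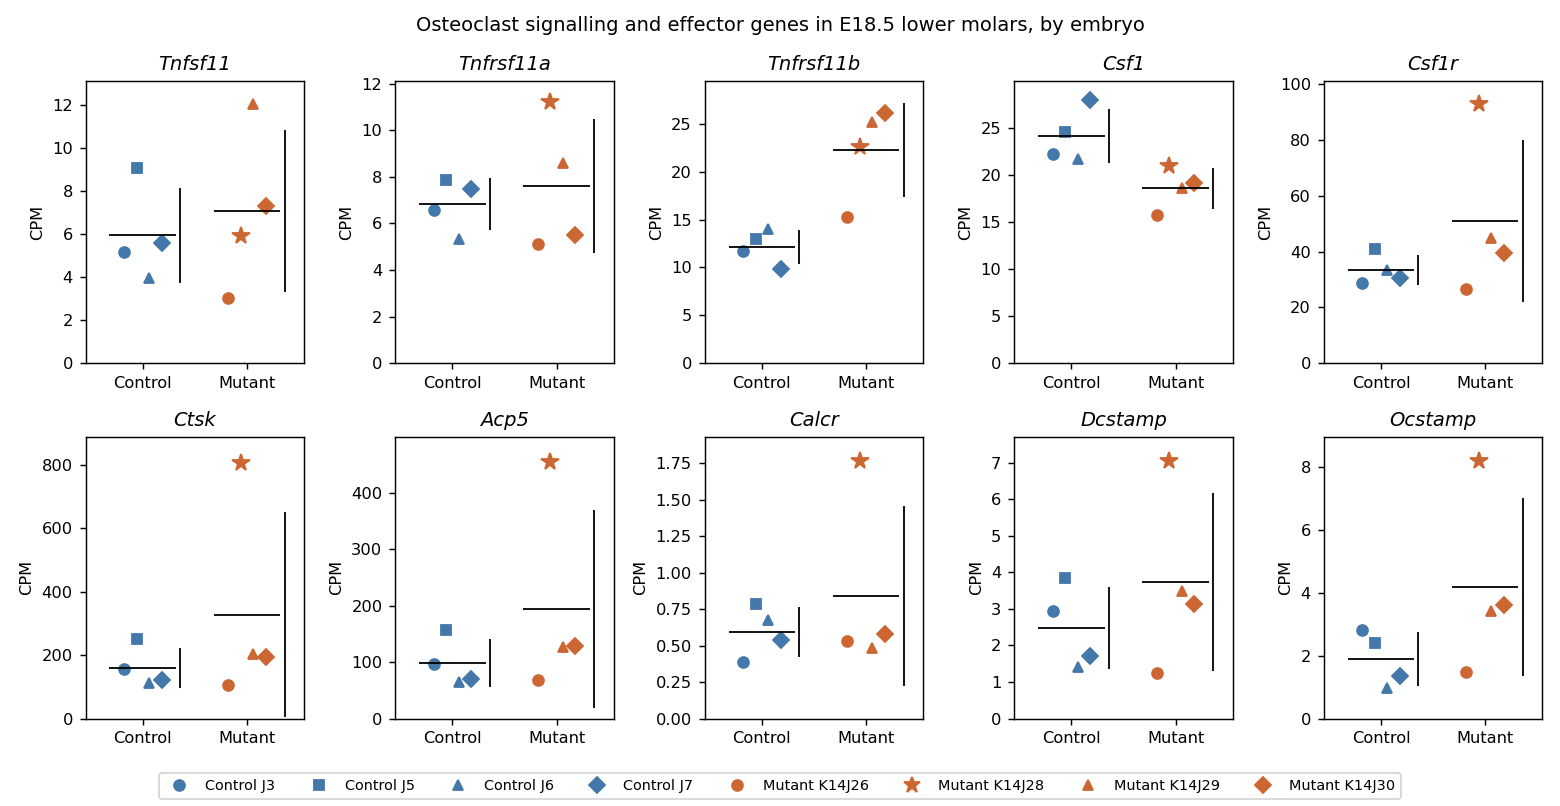
CPM of each of the 10 genes by embryo, with Control in blue and Mutant in orange. Horizontal lines are group means and vertical lines are ±1 SD over 4 embryos. Tnfrsf11b and Csf1 are the only genes of the 10 whose groups do not overlap, and the star, K14J28, is the highest of the 8 embryos for 7 genes.

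Tnfrsf11b (ENSMUSG00000063727, chr15:54250619-54278484 on the minus strand of GRCm38), the gene of osteoprotegerin, rose in the mutant molars. The control values were 11.7, 12.9, 14.01 and 9.83 CPM in J3, J5, J6 and J7, and the mutant values were 15.2, 22.5, 25.2 and 26.1 CPM in K14J26, K14J28, K14J29 and K14J30. All 4 mutant embryos lay above all 4 control embryos, as was the case for 12.6% of all genes tested, and K14J26 came closest to the control range. The mean rose from 12.1 ± 1.79 (SD, n = 4) to 22.3 ± 4.93 CPM (SD, n = 4), a log2 fold change of 0.88 ± 0.18 (SE, edgeR adjusted p = 0.0171). Without K14J28 the log2 fold change was 0.87 (adjusted p = 0.0162). The adjusted p was above 0.05 without J3 (0.0542), J7 (0.0589) or K14J29 (0.0589), while the log2 fold change stayed between 0.78 and 1.02 over the 8 fits that each left out 1 embryo. With the Xist level as a covariate (0.75, adjusted p = 0.0553) or the osteoblast marker score as a covariate (0.71, adjusted p = 0.954) the call was also lost.

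Tnfsf11 (ENSMUSG00000022015, chr14:78277445-78308043 on the minus strand), the gene of RANKL, showed no difference beyond the spread between embryos. Its control values were 5.15, 9.07, 3.94 and 5.57 CPM in J3, J5, J6 and J7, and its mutant values were 3.03, 5.92, 12.03 and 7.30 CPM in K14J26, K14J28, K14J29 and K14J30. The lowest and the highest embryo were both mutant, and the groups overlapped throughout. The means were 5.93 ± 2.20 and 7.07 ± 3.75 CPM (SD, n = 4 each), with a log2 fold change of 0.25 ± 0.39 (SE, edgeR adjusted p = 0.673). Without K14J29, the highest embryo, the log2 fold change was -0.13, and with the Xist level as a covariate it was -0.29.

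The balance between ligand and decoy was followed as the ratio of Tnfsf11 to Tnfrsf11b counts within each embryo. It was 0.439, 0.701, 0.281 and 0.567 in J3, J5, J6 and J7, and 0.199, 0.263, 0.477 and 0.279 in K14J26, K14J28, K14J29 and K14J30. Counts of the decoy exceeded those of the ligand in all 8 embryos. On the log2 scale the ratio averaged -1.08 ± 0.56 in the control and -1.79 ± 0.53 in the mutant molars (SD, n = 4 each). The difference of -0.70 was within the spread between embryos (exact two-sided permutation test over 70 arrangements, p = 0.143, where the smallest possible p is 0.0286). J6 lay among the mutant embryos, and K14J29 lay among the control embryos.

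**Figure D2:**
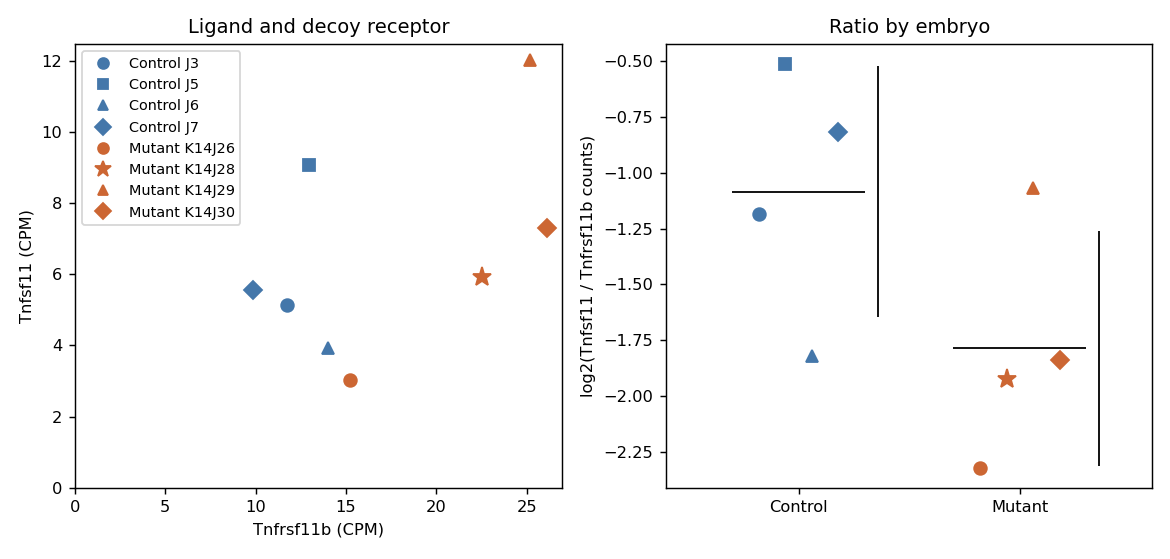
Left, Tnfsf11 against Tnfrsf11b in CPM for the 8 embryos. Right, log2 ratio of Tnfsf11 to Tnfrsf11b counts by embryo, with group means and ±1 SD, in which the control mean of -1.08 lies above the mutant mean of -1.79 while the embryos overlap.

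Tnfrsf11a (ENSMUSG00000026321, chr1:105780718-105847981 on the plus strand), the gene of RANK, did not pass the test. Its control values were 6.59, 7.88, 5.34 and 7.47 CPM in J3, J5, J6 and J7, and its mutant values were 5.10, 11.2, 8.60 and 5.51 CPM in K14J26, K14J28, K14J29 and K14J30. The mutant embryos spread to both sides of the control range, with K14J28 the highest. The log2 fold change was 0.16 ± 0.25 (SE, edgeR adjusted p = 0.687). It was -0.09 without K14J28 and -0.43 with the Xist level as a covariate.

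Csf1 (ENSMUSG00000014599, chr3:107741048-107760469 on the minus strand) was lower in all 4 mutant embryos than in any control embryo, but missed the threshold. The control values were 22.2, 24.6, 21.7 and 27.9 CPM in J3, J5, J6 and J7, and the mutant values were 15.7, 20.9, 18.6 and 19.1 CPM in K14J26, K14J28, K14J29 and K14J30. The gap between the groups was small, from 20.9 in K14J28 to 21.7 in J6, and 11.6% of all genes tested had every mutant embryo below every control embryo. The mean was 24.1 ± 2.83 CPM in the control and 18.6 ± 2.18 CPM in the mutant molars (SD, n = 4 each), with a log2 fold change of -0.38 ± 0.11 (SE, edgeR adjusted p = 0.0523). Without K14J28 the log2 fold change was -0.44 with an adjusted p of 0.0274, whereas over all 8 fits that left out 1 embryo the adjusted p ran up to 0.135. DESeq2 gave -0.38 with an adjusted p of 0.0201.

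Csf1r (ENSMUSG00000024621, chr18:61100598-61132149 on the plus strand), the gene of the CSF1 receptor and a gene of macrophages as well as osteoclasts, overlapped between the groups. The control values were 28.6, 40.8, 33.4 and 30.4 CPM in J3, J5, J6 and J7, and the mutant values were 26.6, 92.8, 44.9 and 39.4 CPM in K14J26, K14J28, K14J29 and K14J30. K14J28 stood far above the rest, at 2.78 times the median of the other 7, and K14J26 was the lowest of the 8. The log2 fold change was 0.62 ± 0.33 (SE, edgeR adjusted p = 0.214). It was 0.15 without K14J28 and -0.10 with the Xist level as a covariate. Csf1r shares 873 of its 5774 exon bases with Hmgxb3 on the opposite strand, and the library kit does not mark strand. Reads of this stretch cannot be told apart.

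The effector genes were next examined, and none of the 5 passed the test in edgeR or DESeq2. At an unadjusted p under 0.05, 1 of them, Ocstamp, was higher with either tool, beside 19.1% of all genes in edgeR and 18.9% in DESeq2. In edgeR this count was 4 without K14J26 and 0 without K14J28, beside 18.8% and 21.3% of all genes. In these bulk samples a different number of osteoclasts and a different amount of RNA per osteoclast cannot be told apart. Over the 5 genes the median log2 fold change was 0.99 with all embryos and 0.10 without K14J28. With the Xist level as a covariate the log2 fold change turned to -0.26 for Ctsk, -0.14 for Acp5, -0.19 for Calcr and -0.30 for Dcstamp. For Ocstamp it was 0.32. Since Xist was high in K14J28 and K14J29 and in no control embryo, this covariate cannot be fully told apart from the genotype or from K14J28.

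Ctsk (ENSMUSG00000028111, chr3:95499256-95509362 on the plus strand) codes for cathepsin K, the protease with which osteoclasts degrade bone collagen. Its control values were 155, 252, 114 and 120 CPM in J3, J5, J6 and J7, and its mutant values were 106, 807, 205 and 195 CPM in K14J26, K14J28, K14J29 and K14J30. K14J28 lay at 5.21 times the median of the other 7 embryos, J5 was the second highest, and K14J26 was the lowest. The means of 160 ± 63.8 and 328 ± 322 CPM (SD, n = 4 each) gave a log2 fold change of 1.04 ± 0.57 (SE, edgeR adjusted p = 0.229). Without K14J28 it was 0.07 (adjusted p = 0.881).

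Acp5 (ENSMUSG00000001348, chr9:22126727-22135711 on the minus strand) codes for tartrate-resistant acid phosphatase, the enzyme whose stain marks osteoclasts. Its control values were 97.5, 158, 65.3 and 70.5 CPM in J3, J5, J6 and J7, and its mutant values were 69.2, 454, 126 and 129 CPM in K14J26, K14J28, K14J29 and K14J30. As for Ctsk, K14J28 was the highest embryo, at 4.65 times the median of the other 7, and J5 the second highest, while J6 was the lowest. The log2 fold change was 0.99 ± 0.54 (SE, edgeR adjusted p = 0.223), and it was 0.14 without K14J28 (adjusted p = 0.773). Across embryos the ratio of Ctsk to Acp5 counts ran only from 1.52 to 1.78, although the highest embryo exceeded the lowest 7.65-fold for Ctsk and 6.95-fold for Acp5. Of 2030 exon bases of Acp5, 137 overlap an annotated transcript of the opposite strand.

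Calcr (ENSMUSG00000023964, chr6:3685680-3764714 on the minus strand), the calcitonin receptor of mature osteoclasts, was the rarest of the 10. It had 7, 19, 13 and 16 counts in J3, J5, J6 and J7, and 11, 53, 14 and 15 counts in K14J26, K14J28, K14J29 and K14J30. Outside K14J28 the mutant values, from 0.485 to 0.582 CPM, lay within the control range of 0.388 to 0.783 CPM. The log2 fold change was 0.50 ± 0.47 (SE, edgeR adjusted p = 0.472), and it was -0.18 without K14J28.

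Dcstamp (ENSMUSG00000022303, chr15:39745930-39760938 on the plus strand) and Ocstamp (ENSMUSG00000027670, chr2:165393760-165400405 on the minus strand) code for the membrane proteins that precursors need in order to fuse. Dcstamp lay at 2.93, 3.83, 1.40 and 1.72 CPM in J3, J5, J6 and J7, and at 1.25, 7.05, 3.5 and 3.14 CPM in K14J26, K14J28, K14J29 and K14J30. Ocstamp lay at 2.82, 2.39, 0.986 and 1.35 CPM in the control and at 1.49, 8.19, 3.43 and 3.61 CPM in the mutant embryos, in the same order. For Ocstamp, 3 of the 4 mutant embryos were above every control embryo and K14J26 was not. The log2 fold change of Ocstamp was 1.16 ± 0.50 (SE, edgeR adjusted p = 0.132), and that of Dcstamp was 0.61 ± 0.49 (SE, adjusted p = 0.400). Without K14J28 they were 0.61 (adjusted p = 0.297) and 0.10, and only without K14J26 did Ocstamp pass, with an adjusted p of 0.0375.

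**Figure D3:**
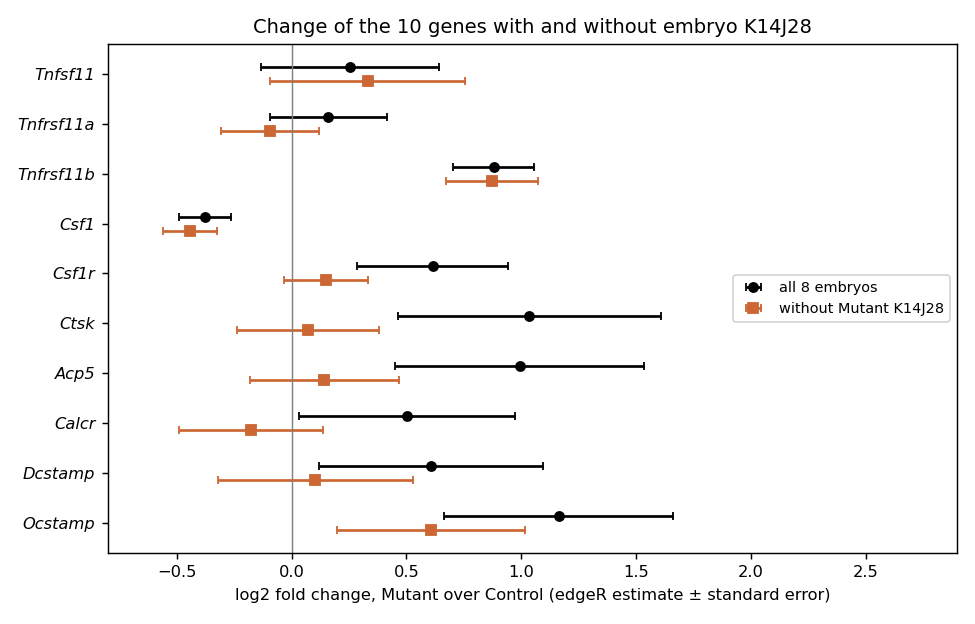
Log2 fold change of the 10 genes, Mutant over Control, with the SE from edgeR, for all 8 embryos (black circles) and without K14J28 (orange squares). Tnfrsf11b (0.88 and 0.87) and Csf1 (-0.38 and -0.44) hardly move, while Ctsk moves from 1.04 to 0.07 and Acp5 from 0.99 to 0.14.

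K14J28 was the highest of the 8 embryos for 7 of the 10 genes, beside 13.7% of all genes tested. It was at least 2-fold above the median of the other 7 embryos for 6 of them, beside 2.38% of all genes. The 3 genes in which it did not lead were Tnfsf11, Tnfrsf11b and Csf1, which code for the secreted and stromal signals, and there it lay at 1.06, 1.61 and 0.97 times the median of the others. The 7 in which it led code for receptors and effectors of the osteoclast lineage itself. Among the wider osteoclast genes, Atp6v0d2, a subunit of the proton pump that acidifies the resorption pit, stood at 58.7 CPM in K14J28, 5.49 times the median of the others. The collagenase gene Mmp9 stood at 540 CPM (3.16 times), the vitronectin receptor subunit Itgb3 at 48.3 CPM (3.02 times) and the receptor gene Oscar at 4.21 times, the last chosen after its values were seen. Most genes of the wider lists did not reach 2-fold, and Car2 lay at 0.86 times. K14J28 was at least 2-fold above the median of the others for 4 of 18 genes of the resorption machinery (22.2%). It was so for 3 of 26 of the signal relay (11.5%) and 3 of 14 of precursor fusion and recruitment (21.4%). For transcription factors it was 1 of 14 (7.14%), and for stromal and epithelial regulators 0 of 18, beside the 2.38% of all genes. K14J28 was the highest embryo for 44.4%, 30.8%, 28.6%, 28.6% and 5.56% of these lists, in the same order, beside 13.7% of all genes.

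**Figure D4:**
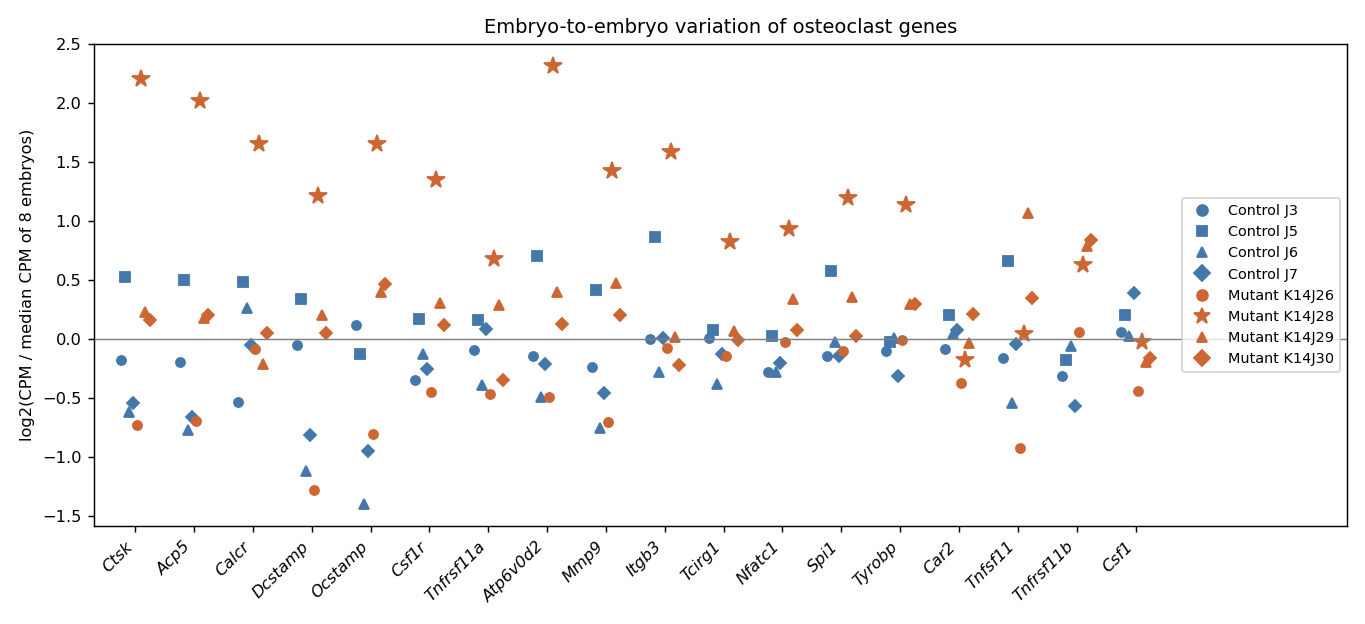
Log2 of CPM over the median of the 8 embryos, for the 10 genes and 8 further osteoclast genes, with each point an embryo. K14J28, the star, is the highest point for Ctsk, Acp5, Atp6v0d2, Mmp9 and Itgb3, and lies within the other embryos for Tnfsf11, Tnfrsf11b, Csf1 and Car2.

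Markers of neighbouring cell types moved with K14J28 as follows, and their part in the result was not tested. The 15 macrophage and monocyte markers summed to between 98.3 and 133 CPM in the control and between 126 and 147 CPM in the mutant molars, with K14J28 the highest at 147, and none was at 0 counts in any embryo. Within that list Cd68, which osteoclasts also express, stood at 2.94 times the median of the other embryos in K14J28. Without Cd68 the sum was 104 CPM in K14J28, the lowest of the mutant embryos, which ran up to 121 CPM, and it lay between 83.9 and 120 CPM in the control embryos. Much of that sum was Lyz2, at 26.6 CPM in K14J28 and between 32.02 and 54.3 CPM in the other mutant embryos. K14J28 led for 3 of the 15 markers, Cd68, Itgam (2.21 times) and Ptprc (1.83 times). It lay below the median of the others for 8, among them Adgre1 at 0.87, Mrc1 at 0.70 and C1qa at 0.71 times. The 10 osteoblast and osteocyte markers summed to between 4985 and 7811 CPM in the control and between 7205 and 18437 CPM in the mutant molars, with K14J28 the lowest mutant embryo. Most of that sum was Col1a1, and by the score of the list, a mean of log2 values, K14J28 at 7.01 was not the lowest (K14J30 was at 6.92). Bone sialoprotein, Ibsp, was at 448 CPM in K14J28 and between 141 and 189 CPM in the other 7. Ibsp was the only 1 of the 10 osteoblast and osteocyte markers for which K14J28 was the highest embryo. The 6 erythroid markers summed to 1417 CPM in K14J28 and to between 586 and 1140 CPM elsewhere. The 8 endothelial markers did not lead in K14J28, whose sum of 337 CPM lay within the mutant range of 299 to 357 CPM, below the control range of 367 to 404 CPM. Over the whole transcriptome the count of genes called, 2764, rose to 4322 without K14J28 and to 3095 without K14J26. It dropped to 420 without K14J29, 536 without J7, 660 without J3 and 839 without J5. The share of all genes called ran from 2.48% to 25.5% over the 8 fits that left out 1 embryo.

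Per length of merged exons, the effectors cathepsin K and tartrate-resistant acid phosphatase were the most abundant of the 10. As means over the 8 embryos, Ctsk stood at 162 ± 154 and Acp5 at 72.0 ± 63.4 CPM per kb (SD). Csf1r followed at 7.29 ± 3.71, Tnfrsf11b at 6.10 ± 2.28, Csf1 at 4.04 ± 0.71 and Tnfsf11 at 2.91 ± 1.30 CPM per kb. Tnfrsf11a at 1.20 ± 0.34, Dcstamp at 1.17 ± 0.70, Ocstamp at 0.83 ± 0.63 and Calcr at 0.18 ± 0.11 CPM per kb closed the order. Of neighbours in this order, only the ranges of Acp5 and Csf1r were separate, and all other neighbours overlapped over embryos. Within each single embryo, Ctsk exceeded Acp5. Csf1r lay above Tnfrsf11b in 5 of 8 embryos, Tnfrsf11b above Csf1 in 5 of 8 and Csf1 above Tnfsf11 in 7 of 8. Dcstamp and Tnfrsf11a changed places, each leading in 4 of 8. The means pool both groups, which did not overlap for Tnfrsf11b and Csf1.

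The patterns most like those of Ctsk, Csf1r and Tnfsf11 were searched among 14735 genes with a mean of at least 1 CPM, by the root mean square difference of centred log2 values over the 8 embryos. The genes most like Ctsk were Acp5 (0.08), Atp6v0d2 (0.11), Slc37a2 (0.23), Mmp9 (0.29) and Clec12a (0.29), beside a median over all genes of 0.91. The ratio of Ctsk to Atp6v0d2 counts ran from 11.8 to 15.1, whereas that of Ctsk to Csf1r ran from 3.41 to 8.70 and was highest in K14J28. For Csf1r the genes were Cd68 (0.13), Clec4a2 (0.15), Nckap1l (0.17), Fxyd5 (0.18) and Spi1 (0.18), beside a median of 0.57. Cd68 and Spi1 are genes of the myeloid lineage. For Tnfsf11 they were Tgm2 (0.18), C4b (0.19), Osmr (0.20), Lrg1 (0.22) and Ifi47 (0.22), beside a median of 0.62. None of the 10 genes was among those most like Tnfsf11. These likenesses describe 8 libraries and share their scaling.

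Because Ctsk and Acp5 varied together from embryo to embryo, their promoter windows are shown, from 250 bases before to 50 bases after an annotated start (RefSeq, GRCm38.p6), each 5′ to 3′ on the strand of the gene. Capitals mark matches to the letters GAGGAA, the core of PU.1 sites, or TGGAAA, the core of NFAT sites, on either strand. PU.1 and NFATc1 are transcription factors of osteoclast formation.
Ctsk, chr3:95498960-95499259, plus strand: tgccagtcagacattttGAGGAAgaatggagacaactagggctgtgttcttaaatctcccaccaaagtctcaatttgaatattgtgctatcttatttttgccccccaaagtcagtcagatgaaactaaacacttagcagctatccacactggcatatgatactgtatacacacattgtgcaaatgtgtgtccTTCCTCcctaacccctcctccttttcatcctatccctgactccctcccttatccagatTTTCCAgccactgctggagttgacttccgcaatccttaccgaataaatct
Acp5, chr9:22130549-22130848, minus strand: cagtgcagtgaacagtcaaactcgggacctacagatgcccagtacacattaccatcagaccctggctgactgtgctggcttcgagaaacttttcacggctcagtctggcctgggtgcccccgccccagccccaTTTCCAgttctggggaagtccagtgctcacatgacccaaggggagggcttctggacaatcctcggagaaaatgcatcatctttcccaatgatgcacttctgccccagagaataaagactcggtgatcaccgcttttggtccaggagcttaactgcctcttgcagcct
The Ctsk window holds GAGGAA at position 18 and, on the opposite strand, at position 193, and TGGAAA on the opposite strand at position 251. The Acp5 window holds TGGAAA on the opposite strand at position 134. The start of this Acp5 window is one of 3 annotated for the gene, and the windows of the other 2 hold no match. Of 32851 windows of 300 bases, 28.3% hold GAGGAA and 21.4% hold TGGAAA. Neither AP-1 (TGANTCA, in 7.81% of windows) nor the E-box CACGTG (in 7.15%) was found in the windows of Ctsk and Acp5. The windows of Tnfsf11, Tnfrsf11a, Csf1 and Calcr hold none of the 4 motifs.

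Beyond the 10 genes, 90 tested genes of 5 lists were examined, and 17 were higher and 6 lower in the mutant molars, beside the 9.52% and 6.61% of all genes. The signal relay downstream of RANK and the CSF1 receptor held 26 genes, of which 1 rose and 3 fell, with a median log2 fold change of 0.11. Traf6, the adaptor that carries the RANK signal, fell from 93.4 ± 6.67 to 71.3 ± 3.71 CPM (SD, n = 4 each; log2 fold change -0.39, edgeR adjusted p = 0.0130), with all 4 mutant embryos below all control embryos. Map3k14, the kinase of the non-canonical NF-kB branch (-0.53, adjusted p = 0.0493), and the kinase gene Akt1 (-0.21, adjusted p = 0.0351) also fell, and Ikbkb, a kinase of the canonical branch, rose (0.25, adjusted p = 0.0345). The adaptor Tyrobp, which carries costimulatory signals, stood at 0.61 (adjusted p = 0.0943), and at 0.30 without K14J28. These genes, other than Tyrobp, act in many cell types.

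Among 14 osteoclast transcription factors, 2 rose and 1 fell, with a median log2 fold change of 0.26. Nfatc2 rose (log2 fold change 0.46, edgeR adjusted p = 0.0308) and Jun fell (-0.49, adjusted p = 0.0364). Nfatc1, the master factor of osteoclast formation, stood at 0.56 (adjusted p = 0.0795), with 3 mutant embryos between 22.6 and 29.1 CPM, K14J28 at 44.0 CPM and the controls between 19.0 and 23.5 CPM. Without K14J28 it was at 0.31. Spi1, the gene of PU.1, was at 0.37 (adjusted p = 0.410), and at 0.01 without K14J28.

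Of 18 genes of the resorption machinery, 7 rose and 0 fell (0 also at an unadjusted p under 0.05 and in DESeq2), with a median log2 fold change of 0.44. Ckb, a creatine kinase, rose from 85.2 ± 20.6 to 237 ± 80.3 CPM (SD, n = 4 each; log2 fold change 1.48, edgeR adjusted p = 0.0107) and was called in all 8 fits that left out 1 embryo. The membrane-associated adaptor Pstpip2 (0.62, adjusted p = 0.0454) and the anion exchanger Slc4a2 (0.56, adjusted p = 0.0351) rose as well. Slc4a2 shares 1141 exon bases with Fastk on the opposite strand. The other 4 that rose were Clcn7, Ostm1, Plekhm1 and Atp6v1b2, genes of lysosomes in general, named after their values were seen. Clcn7 rose from 45.3 ± 0.87 to 64.6 ± 5.27 CPM and Plekhm1 from 24.0 ± 2.15 to 35.02 ± 0.82 CPM (SD, n = 4 each), and both were called in all 8 such fits. Among genes used mainly or strongly by osteoclasts the test was not passed by Atp6v0d2 (log2 fold change 0.98, adjusted p = 0.249), Mmp9 (0.74, 0.228), Tcirg1 (0.34, 0.267), Itgb3 (0.33, 0.614) or the carbonic anhydrase Car2 (-0.14, 0.415). Without K14J28, Atp6v0d2 was at 0.02, Mmp9 at 0.26, Tcirg1 at 0.07, Itgb3 at -0.31 and Car2 at -0.12. For the 7 genes that rose, cells other than osteoclasts in the molar are a further source of reads, and their share was not tested. Of osteoblast and dental epithelium markers, 4 of 10 and 4 of 9 were called higher and 0 lower, beside 9.52% and 6.61% of all genes. The log2 fold change was negative for 2 genes of each list. Among them Epcam lay between 218 and 255 CPM in the control and between 113 and 195 CPM in the mutant molars. Dental epithelium markers summed to between 5048 and 8377 CPM in the control and to between 8817 and 121420 CPM in the mutant molars. Among the mutant embryos K14J26 had the highest and K14J28 the lowest of these sums.

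Precursor fusion and recruitment held 14 tested genes, of which 3 rose and 0 fell, with a median log2 fold change of 0.42. At an unadjusted p under 0.05, 1 gene of this list was lower, and DESeq2 called 0 lower. The metalloprotease Adam8 (0.68, edgeR adjusted p = 0.0194), the proton pump accessory subunit Atp6ap1 (0.64, adjusted p = 0.0266) and the CD47 receptor Sirpa (0.54, adjusted p = 0.0355) rose. Adam8 shares 46 exon bases with Gm16201 on the opposite strand, as Jun shares 232 with Junos.

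Of 18 tested stromal and epithelial regulators of RANKL and osteoprotegerin, 4 rose and 2 fell, with a median log2 fold change of 0.10. Sost, the Wnt antagonist of osteocytes, rose by 2.76 on the log2 scale (edgeR adjusted p = 0.0463), from 0, 5, 9 and 3 counts in J3, J5, J6 and J7 to 21, 8, 44 and 63 counts in K14J26, K14J28, K14J29 and K14J30, a low level at which the fold is uncertain. The vitamin D receptor Vdr, which induces Tnfsf11 in stromal cells, rose from 22.4 ± 4.83 to 38.8 ± 9.80 CPM (SD, n = 4 each; log2 fold change 0.79, adjusted p = 0.0323), and Bmp2 rose from 26.2 ± 5.58 to 44.7 ± 9.93 CPM (0.77, adjusted p = 0.0300). In both, K14J28 was the lowest mutant embryo and lay within the control range. Ephb4, the ephrin receptor of osteoblasts, fell from 114 ± 11.2 to 86.1 ± 4.3 CPM (-0.41, adjusted p = 0.0160), and Runx2, the master factor of osteoblasts, fell (-0.29, adjusted p = 0.0436). Pthlh, which is made by dental epithelium and acts on the follicle, was at 0.25 (adjusted p = 0.224), and the receptor gene Lgr4 was at 0.10 (adjusted p = 0.441). Il34, the second ligand of CSF1R, had at most 0.720 CPM and a log2 fold change of -0.94 (adjusted p = 0.137).

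Many of these list calls rest on the full set of embryos. Of the list genes named above as risen or fallen, Ckb, Clcn7 and Plekhm1 were called in all 8 fits that left out 1 embryo, Traf6 in 7 and Ephb4 in 6. Adam8, Jun and Ostm1 were called in 4, Sost and Akt1 in 2, Map3k14 and Pstpip2 in 1, and the remaining genes in 3.

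Like that of Tnfrsf11b, the calls of the lists were lost in edgeR when the osteoblast marker score was added to the model. There 0 of 17129 genes were called, with 390 higher and 343 lower at an unadjusted p under 0.05, and of the 90 list genes 6 were higher and 3 lower at an unadjusted p under 0.05. The score was higher in all 4 mutant embryos, from 6.92 to 7.23, than in the control embryos, from 6.48 to 6.80, so that it and the genotype cannot be told apart. With the Xist level as a covariate the log2 fold change of Csf1 was -0.50 (edgeR adjusted p = 0.0478).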

How the data were processed

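The lower first molars of 4 K14Cre;Jagged1fl/fl and 4 Jagged1fl/fl embryos were profiled by poly(A) RNA-seq with a kit that does not keep strand. The authors deposited 1 table of read counts per gene and embryo, unnormalized, over 43629 Ensembl identifiers. Reads were trimmed with Trimmomatic and aligned with STAR to GRCm38. The study's methods name GenomicRanges for counting, and the submitters' processing notes name featureCounts. The Ensembl release, the strand setting and how multimapping reads were counted are not given in the sources used here. Gene names, positions and exon lengths came from GENCODE M21 on GRCm38 (42548 identifiers matched), and promoters from RefSeq.

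A gene was kept where 2 or more embryos of a group had 10 or more counts (17129 genes). The counts were scaled by TMM and tested with edgeR 4.0.16 (quasi-likelihood, no covariates, R 4.3.3), with Benjamini-Hochberg adjustment over all genes kept and a threshold of 0.05. SE is the absolute log2 fold change over the square root of F. CPM are counts over the TMM-scaled library size. DESeq2 1.42.0 was an alternative, beside other scalings and filters, covariates and fits without each embryo. The fit was tested on simulated counts drawn with the same spread for every gene and for both groups. It was therefore not tested under the unequal spread of the embryos here. Likeness used log2 CPM with a prior count of 2. A ratio used an offset of 0.5 on the log2 scale, and marker scores are means of log2(CPM + 0.1). With 4 embryos a group, the spread between embryos limits the precision more than depth. Replicates are separate embryos, and no pair of libraries of the same group agreed within sampling noise. The chi-square per degree of freedom of such pairs ran from 7.16 to 16.2 in the control group. In the mutant group it ran from 31.5 to 301. The edgeR fit takes a single measure of spread per gene over both groups.

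The members and lists were chosen with earlier results of these data known. The rule for names was the 10 genes, 12 osteoclast genes, the largest calls of each list (up to 3 per direction) and the 5 genes most like Tnfsf11, Csf1r and Ctsk. The values of 1 gene of the transcription factor list are not reported here.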

Additional observations from a re-analysis of the deposited data

Results flagged for a closer look

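Among 80 groups of 4 embryos examined for the genes named, 10 had 1 embryo whose gap to its nearest neighbour took up more of the range of the group than Dixon's critical value for 4 samples, which chance gives in about 1 of 20 groups. K14J28 was the embryo that stood high among the mutant molars in 6 of them. The share of the range was 0.858 for Ctsk, 0.845 for Acp5, 0.924 for Calcr, 0.857 for Atp6v0d2, 0.832 for Tcirg1 and 0.929 for Itgb3. K14J26 stood low among the mutant molars for Adam8 (0.878) and high for Il34 (0.833), which had at most 0.720 CPM. Among the control molars J5 stood high for Spi1 (0.868) and J7 for Akt1 (0.852). These genes are not independent of each other, since those of osteoclasts varied together.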

How the results depend on the processing

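No paired analysis was possible because the groups share no replicate numbers. The alternative that left out K14J28 in DESeq2 was chosen after seeing the data. Where a value changed, the cause was not tested. Xist was high only in the mutant embryos K14J28 and K14J29, so this covariate is partly tied to the genotype. Of the 10 genes, 2 were called higher by the criterion of the study and 0 with Xist or with the osteoblast score as covariate, and 0 to 2 when 1 embryo was left out. Of all genes, 8.82% were called higher with Xist, 0% with the osteoblast score and 1.48% to 14.6% when 1 embryo was left out. By the criterion of the study it was 8.33%. Called lower was 1 gene, against 0, with upper quartile scaling, DESeq2, the filter of at least 1 CPM in at least 4 embryos, Xist or the macrophage score as covariate, and DESeq2 without K14J28 (4.66% to 13.6% of all genes lower), and 0 to 1 when 1 embryo was left out. Of the list genes, 17 higher became 10 with library size only and 0 with the osteoblast score, and ran from 3 (without J3, J7 or K14J29) to 24 (without K14J26) when 1 embryo was left out. The share of all genes called higher moved as well, from 9.52% to 4.99% with library size only and to 0% with the osteoblast score. It ran from 1.48% to 14.6% when 1 embryo was left out, and was 10.3% without K14J26. DESeq2 with all embryos called 25 higher, beside 13.1% of all genes. The 6 lower became 3 without a count filter, 3 by the criterion of the study, 0 with the osteoblast score and 11 in DESeq2 without K14J28, and ran from 1 to 11 when 1 embryo was left out. Of all genes 3.21%, 5.85%, 0% and 13.6% were lower in these fits, against 6.61%, and 1% to 10.9% when 1 embryo was left out. With Xist as covariate the log2 fold change turned to -0.29 for Tnfsf11, -0.43 for Tnfrsf11a, -0.10 for Csf1r, -0.26 for Ctsk, -0.14 for Acp5, -0.19 for Calcr, -0.30 for Dcstamp, -0.20 for Spi1, -0.34 for Atp6v0d2, -0.0241 for Tcirg1, -0.11 for Mmp9 and -0.44 for Itgb3. With the osteoblast score it turned to -1.16 for Tnfsf11, -0.41 for Tnfrsf11a, -0.0176 for Dcstamp, -0.26 for Spi1, -0.00530 for Mmp9, -0.34 for Itgb3 and 0.00437 for Il34. With library size only, which moved the median of all genes to -0.09, Lgr4 turned to -0.0108. When 1 embryo was left out the log2 fold change ran from -0.13 to 0.52 for Tnfsf11, from -0.0938 to 0.31 for Tnfrsf11a, from -0.18 to 0.70 for Calcr and from -0.31 to 0.62 for Itgb3. In DESeq2 without K14J28 it was -0.0948 for Tnfrsf11a, -0.18 for Calcr and -0.31 for Itgb3. Over 39 genes and 738 values, 573 kept direction and side of the threshold, 125 lost the call and 13 gained one. Depth limits Calcr, Il34 and Sost, which had few counts.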
